A study of Mus musculus with 24 samples.

Results

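The genes described here are 34 genes that are characteristic of astrocytes, out of 45777 genes in the deposited count table of mouse prefrontal cortex. They were listed by symbol, with earlier results of these data known. All 34 were present and all 34 passed the filter on low counts, which left 18380 genes for testing. The 24 RNA-seq libraries came from wild type adult male mice and fell into 4 groups of 6. Control mice had no treatment, and MS mice had been through maternal separation, a rearing stress in which pups are kept from the dam. Control_EC12 and MS_EC12 mice were the same rearings with EC-12, a heat-killed preparation of the gut bacterium Enterococcus faecalis, given for 5 weeks. All mice shared the wild type genotype, and the labels give neither the timing of the separation nor the age in weeks. The labels number the libraries within a group but do not state that each came from a separate animal, so the spread behind each p-value is the one between libraries, which may be technical.

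Astrocytes are the glial cells that clear glutamate and potassium from around synapses, wrap blood vessels with water-permeable endfeet and supply neurons with fuel. They hold most of the brain's glycogen, are joined into networks by gap junctions of connexin 43 and connexin 30, and release lipoproteins that carry cholesterol and other lipids to neighbouring cells. When tissue is injured or inflamed they become reactive, and the intermediate filament protein GFAP is the classical sign of that state. The 34 genes were grouped by these roles: glycogen and glycolysis, junctions, lipid carriers, filaments, water and ion control, amino acid and transmitter metabolism, transcription factors, receptors, secreted proteins, and a calcium-binding and Ndr family pair.

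In the Control libraries the defining astrocyte genes were all well above 0 when compared per transcript length. Apoe was the highest at 2210 ± 129 TPM (a length-normalised level, SD, n = 6), followed by Sparcl1 at 1120 ± 32.7, Mt3 at 837 ± 43.2, Clu at 807 ± 45.5, Aldoc at 676 ± 25.7 and Ndrg2 at 650 ± 49.3 TPM. Those 6 genes stood above the 99th percentile of the genes tested. Gja1 was at 149 ± 9.39 TPM, Gfap at 96.4 ± 11.6, Aqp4 at 53.7 ± 4.03, Aldh1l1 at 41.7 ± 2.5 and Ppp1r3c at 35.2 ± 0.757 TPM. The lowest was Plcd4 at 9.5 ± 0.553 TPM, at the 46th percentile. The summed level of the 34 genes was 7750 to 8340 TPM in Control, 7860 to 8620 in MS, 8250 to 9360 in Control_EC12 and 8030 to 9620 in MS_EC12, and each pair of these ranges overlaps. In whole tissue, fewer astrocytes and less RNA per astrocyte cannot be told apart.

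Total counts ran from 26250197 to 39252382 per library, and no pair of libraries agreed within sampling noise. The libraries differed in how their counts depended on base composition. For each library a GC slope was computed, the change of a gene's log2 level, relative to that gene's mean over the 24 libraries, per 10 percentage points of transcript GC content. In 17 libraries the slope lay between -0.202 and -0.0852, and in the other 7 between 0.0964 and 0.611. The 7 libraries were MS 3, Control_EC12 3 and 4, and MS_EC12 3, 4, 5 and 6, and no Control library was among them. In MS_EC12 4 of 6 libraries had a slope above 0, so slope and group partly coincide over all 24 libraries. Each comparison is given over all 24 libraries and over the 17 libraries of slope below 0, which keep 6 Control, 5 MS, 4 Control_EC12 and 2 MS_EC12 libraries. The astrocyte genes ranged from 41% to 62.3% GC with a median of 52%, against 49.8% for all genes with a value.

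Across both sets of libraries, 3 astrocyte genes were lower in MS_EC12 than in Control, each from a different function. Ppp1r3c encodes a glycogen-targeting subunit of protein phosphatase 1 that promotes glycogen storage, Gja1 encodes connexin 43, and Aqp4 encodes the water channel of the endfeet. Mt3, a brain metallothionein that binds zinc, and S100b, a calcium-binding protein of astrocytes, were higher in both sets. With the GC slope as a covariate, Ppp1r3c alone of these 5 passed. The 17 libraries are part of the 24 and hold 2 of the MS_EC12 libraries, so passing in both sets is not a replication. Of all genes, 14.1% passed in MS_EC12 against Control over the 24 and 1.01% over the 17. The share of all genes passing in both sets was not computed. When single libraries were left out of the 24, Ppp1r3c kept its call in all 12 fits. The call was lost in 2 of 12 fits for Mt3, 9 for Gja1, 10 for Aqp4 and 12 for S100b. The lipid carrier gene Apoe was higher over all 24 libraries and not over the 17, and the filament genes Gfap and Vim passed in neither. Ppp1r3c was also lower in MS than in Control, with the test passed over the 17 libraries and not over the 24.

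Ppp1r3c and Gja1 are shown with the 250 bases before their RefSeq start on GRCm38.p6, since they were lower in both sets of libraries. The Ppp1r3c window is chr19:36736605-36736854 on the minus strand and the Gja1 window is chr10:56377050-56377299 on the plus strand, both written 5′ to 3′ along the gene. Capitals mark motif letters found by a search of both strands with 6 motifs.
Ppp1r3c: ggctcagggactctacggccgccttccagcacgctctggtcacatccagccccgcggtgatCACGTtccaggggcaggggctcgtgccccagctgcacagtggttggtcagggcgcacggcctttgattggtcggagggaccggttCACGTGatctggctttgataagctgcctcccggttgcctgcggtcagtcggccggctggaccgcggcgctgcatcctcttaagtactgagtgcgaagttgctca
Gja1: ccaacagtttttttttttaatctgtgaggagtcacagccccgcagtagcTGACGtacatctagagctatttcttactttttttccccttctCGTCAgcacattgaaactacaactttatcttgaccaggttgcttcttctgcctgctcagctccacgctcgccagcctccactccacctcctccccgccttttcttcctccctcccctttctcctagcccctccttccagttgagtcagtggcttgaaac
The Ppp1r3c window has 64.4% GC and holds the E-box CACGTG, which CLOCK, MYC-family and related factors can bind, 104 bases before the start. It also holds the hypoxia response core ACGTG in 3 places, of which 2 lie within that E-box. The E-box was found in 6.05% of 27025 RefSeq windows of this length and in 2 of the 29 astrocyte genes with a window, the other being Ntsr2. ACGTG was found in 16.6% of windows and in 3 of 29. The Gja1 window has 50% GC and holds the cAMP response core TGACG in 2 places, 201 and 159 bases before the start, a motif found in 17.9% of windows and in 2 of 29. The other motifs searched were the glucocorticoid receptor core AGAACA (16.2% of windows, 1 of 29 genes), the NFI core TTGGC (41.9%, 14 of 29) and the SOX core ACAAT (28.3%, 7 of 29). These matches are letters in a window and say nothing of binding in this tissue.

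Few genes passed for maternal separation alone, and Ppp1r3c was the one astrocyte gene among them in any setting run. Over all 24 libraries 0 of 34 astrocyte genes passed an adjusted p of 0.05 by edgeR's quasi-likelihood test in MS against Control, where 0.0326% of all genes passed and 1 astrocyte gene had an unadjusted p under 0.05. DESeq2 and limma also called 0. Over the 17 libraries 1 of 34 passed, against 0.435% of all genes, and with the GC slope as a covariate 1 of 34 passed, against 0.337%. In each of these it was Ppp1r3c, and the median log2 fold change of the 34 genes was -0.011 over the 24 libraries, against -0.006 for all genes.

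Ppp1r3c was at 37.8 to 41.5 CPM (counts scaled to library size) in the 6 Control libraries, with a median of 38.7. The 6 MS libraries were at 33.8, 31, 27, 33, 30.3 and 25.8 CPM. Every MS library was below every Control library, which was so for 0.718% of all genes in either direction. The difference was -0.37 ± 0.0951 (log2, SE) with an adjusted p of 0.376 over all 24 libraries, and -0.34 with an adjusted p of 0.0424 over the 17. With the GC slope as a covariate it was -0.36 with an adjusted p of 0.0225. Over the 8 other settings the adjusted p ran from 0.0225 to 0.636. The fold change was thus nearly the same in each fit, while the adjusted p lay on both sides of the threshold. No other glycogen gene of a list of 24 enzymes and regulators, 23 of them tested, passed in MS against Control, and the median of that list was -0.019.

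The Control_EC12 libraries were at 38.4, 31.9, 29.9, 34.5, 38.1 and 30.4 CPM for Ppp1r3c, overlapping both Control and MS, with a log2 difference from Control of -0.20 ± 0.0949 and an adjusted p of 0.534. The MS_EC12 libraries were at 25.9, 30.5, 25.2, 27.5, 26.9 and 18.5 CPM, all below every Control library. The group means were 39 ± 1.39 CPM in Control, 30.2 ± 3.19 in MS, 33.9 ± 3.74 in Control_EC12 and 25.8 ± 3.98 in MS_EC12 (SD, n = 6). MS_EC12 differed from MS by -0.23 ± 0.0953, with an adjusted p of 0.116. By mean level the 4 groups ran in the order Control, Control_EC12, MS and MS_EC12. Control against Control_EC12 and MS against MS_EC12 did not pass the test, and Control_EC12 against MS was not tested. MS_EC12 differed from Control_EC12 by -0.40 ± 0.0953, which did not pass either (adjusted p = 0.0925). The interaction of rearing and supplement was -0.02 ± 0.134 for Ppp1r3c, with an adjusted p of 0.96.

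**Figure D1:**
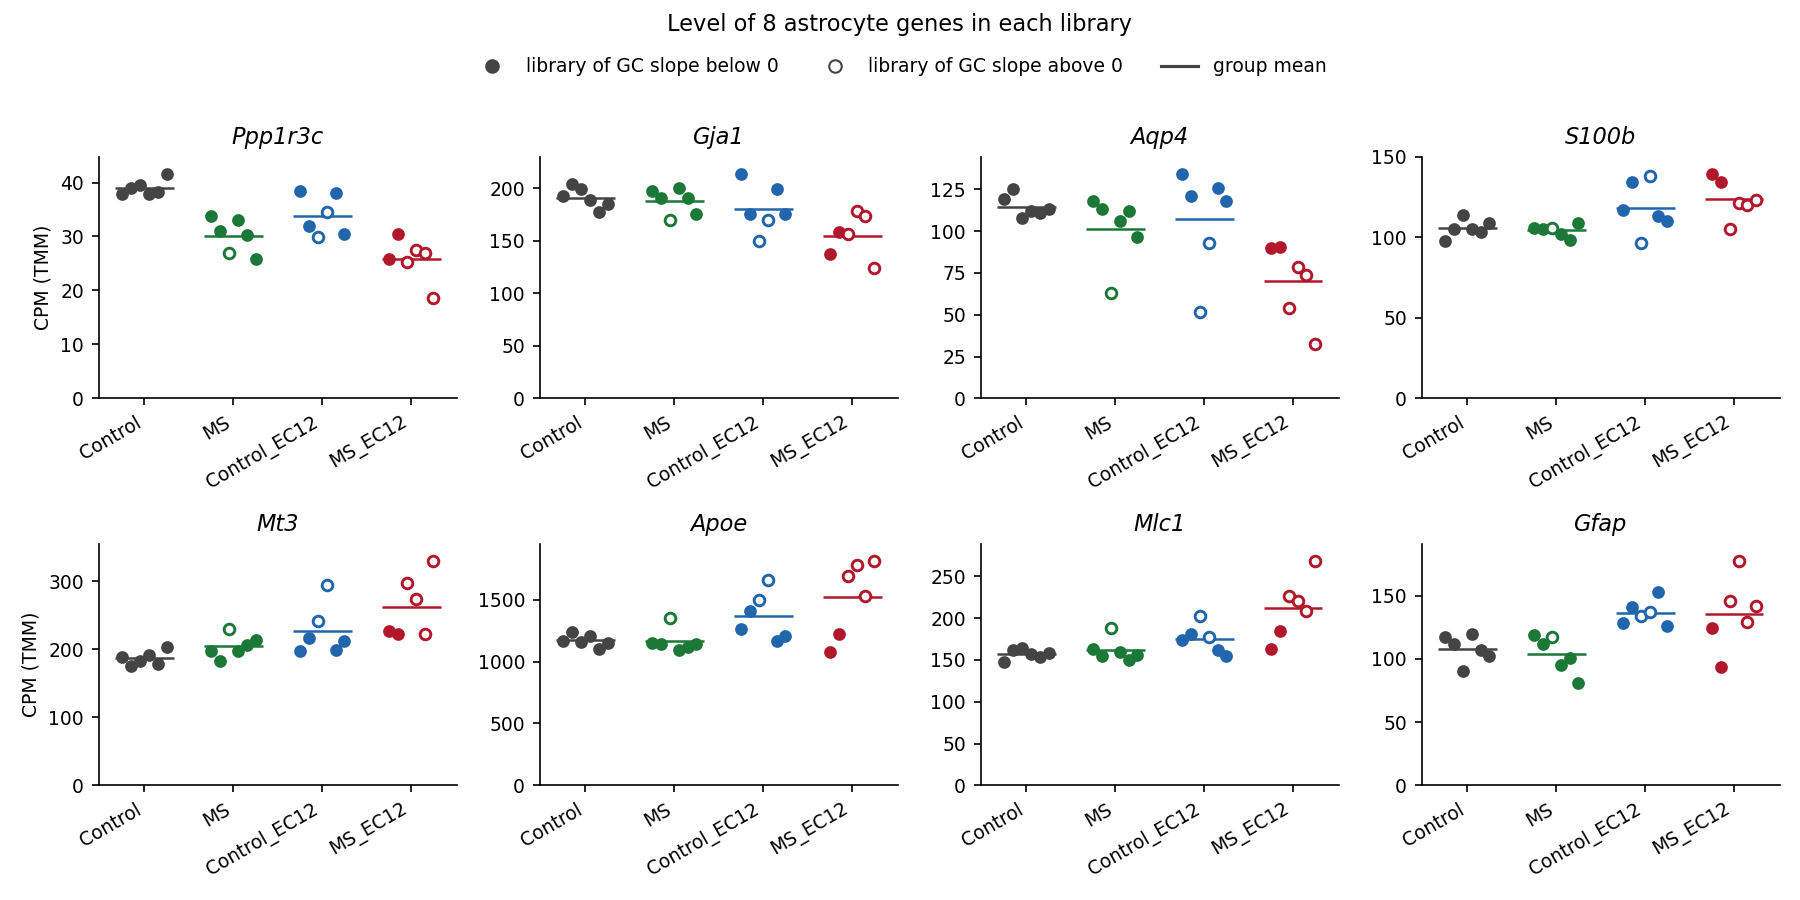
Level in CPM (TMM-scaled counts, axes from 0) of 8 astrocyte genes in the 24 libraries, by group; filled points are libraries of GC slope below 0, open points those above 0, and lines are group means. Ppp1r3c was at 37.8 to 41.5 CPM in Control and at 18.5 to 30.5 CPM in MS_EC12, and the open points sit low for Aqp4 and high for Apoe and Mlc1.

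The supplement in normally reared mice moved no astrocyte gene past the threshold. In Control_EC12 against Control 0 of 34 passed over all 24 libraries, against 0.0218% of all genes, and 0 of 34 over the 17, against 0.456%. DESeq2 and limma also called 0. Unadjusted p was under 0.05 for 5 and 9 of the 34, and the median log2 fold change was 0.091, against 0.01 for all genes. Gfap was the one gene whose ranges did not overlap over all 24 libraries, a pattern seen in 1.33% of all genes. Its level was 90.1 to 120 CPM in Control with a median of 109, and 126 to 153 CPM in Control_EC12 with a median of 135. The log2 difference was 0.34 ± 0.114 with an adjusted p of 0.342, and 0.34 with an adjusted p of 0.142 over the 17 libraries. It had the same size in both sets, and neither passed.

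Markers of neighbouring tissue were measured beside Gfap. Over all 24 libraries 10 of 10 genes of the olfactory bulb and its ensheathing glia had a positive log2 fold change in Control_EC12 against Control, with a median of 0.806, although 0 of 10 passed. Their summed level was 466 to 803 TPM in Control, 409 to 733 in MS, 700 to 1340 in Control_EC12 and 462 to 1150 in MS_EC12, and none of the 10 was at 0 throughout. Meningeal fibroblast genes had a positive change in 8 of 10, against 52.1% of all genes, and 0 of 10 passed, with a median of 0.279 and a summed level of 123 to 147 TPM in Control against 130 to 197 in Control_EC12. Olfactory ensheathing and bulb glia also make GFAP, and the part of either tissue in the Gfap values was not tested. Vim, a second filament gene, was at 27.6 to 35.5 CPM in Control and 27.5 to 46.2 CPM in Control_EC12, with a log2 difference of 0.20 and an adjusted p of 0.615.

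The supplement in separated mice gave 0 of 34 astrocyte genes past the threshold over all 24 libraries, where 0.163% of all genes passed. The adjusted p-values of the 34 began at 0.0664, and 18 had an unadjusted p under 0.05. DESeq2 called 15 and limma on log2(TPM + 1) called 1, where they called 1894 and 161 of all genes. The count of 0 became 17 without MS 3, 16 without MS_EC12 1 and 18 without MS_EC12 2, where the count over all genes went from 30 to 3937, 5037 and 4594. The median log2 fold change of the 34 was 0.215, with 25 positive, against 0.015 and 51.9% positive for all genes. Over the 17 libraries 1 of 34 passed, against 0.0733% of all genes, and the median was 0.098. That gene was S100b, at 97.8 to 114 CPM in Control, 98.3 to 109 in MS, 96.7 to 138 in Control_EC12 and 105 to 139 in MS_EC12. The 2 MS_EC12 libraries of slope below 0 were the highest of their group at 139 and 134 CPM. S100b differed from MS by 0.39 over the 17 libraries (adjusted p = 0.0438) and by 0.25 ± 0.0765 over the 24 (adjusted p = 0.0828).

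Most astrocyte calls came from the comparison of MS_EC12 with untreated Control, which changes rearing and supplement together. Over all 24 libraries 14 of 34 passed, 11 higher and 3 lower, where 14.1% of all genes passed, 7.31% higher and 6.8% lower. The median log2 fold change of the 34 was 0.218, with 24 positive, against 0.007 and 50.8% for all genes. Over the 17 libraries 5 of 34 passed, 2 higher and 3 lower, against 1.01% of all genes, and the median was 0.024. With the GC slope as a covariate Ppp1r3c alone passed, against 0.218% of all genes. The count over all 24 libraries also rested on single libraries: it was 1 without Control 5 or without MS_EC12 6 and 20 without MS_EC12 1. The genes called among all tested moved likewise, from 2594 to 9, 10 and 6544. Ppp1r3c alone of the 14 kept its call without each of the 12 libraries. The call was lost in 2 of 12 fits for Acsbg1, Mlc1 and Mt3, without Control 5 and without MS_EC12 6, and in 5 for Aldh1l1 and Gpr37l1. It was lost in 8 for Ndrg2, 9 for Gja1, 10 for Aldoc, Apoe, Aqp4, Cldn10 and Ntsr2, and 12 for S100b. In 6 of the 34 genes the MS_EC12 and Control ranges did not overlap, 4 higher and 2 lower, against 5.19% of all genes: Acsbg1, Mt3, Cldn10, Aldh1l1, Ppp1r3c and Aqp4.

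The fold changes of the 34 genes followed GC content over all 24 libraries. All 19 astrocyte genes with more than 50% GC had a positive log2 fold change in MS_EC12 against Control, and 10 of the 15 with less had a negative one. Pearson's r between GC content and fold change was 0.79 across the 34 genes and 0.55 across 17031 genes, given as a description of genes that share libraries. Over the 17 libraries r was 0.10 across the 34 and -0.08 across all genes, and 11 of the 19 GC-rich genes were positive. In MS_EC12 against MS, r was 0.83 over all 24 libraries and 0.12 over the 17. The 17 were chosen by a GC slope fitted to these same levels. Lower r values over the 17 therefore follow from that choice and are no separate test. The part of base composition in any single gene's change was not tested beyond these fits.

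**Figure D2:**
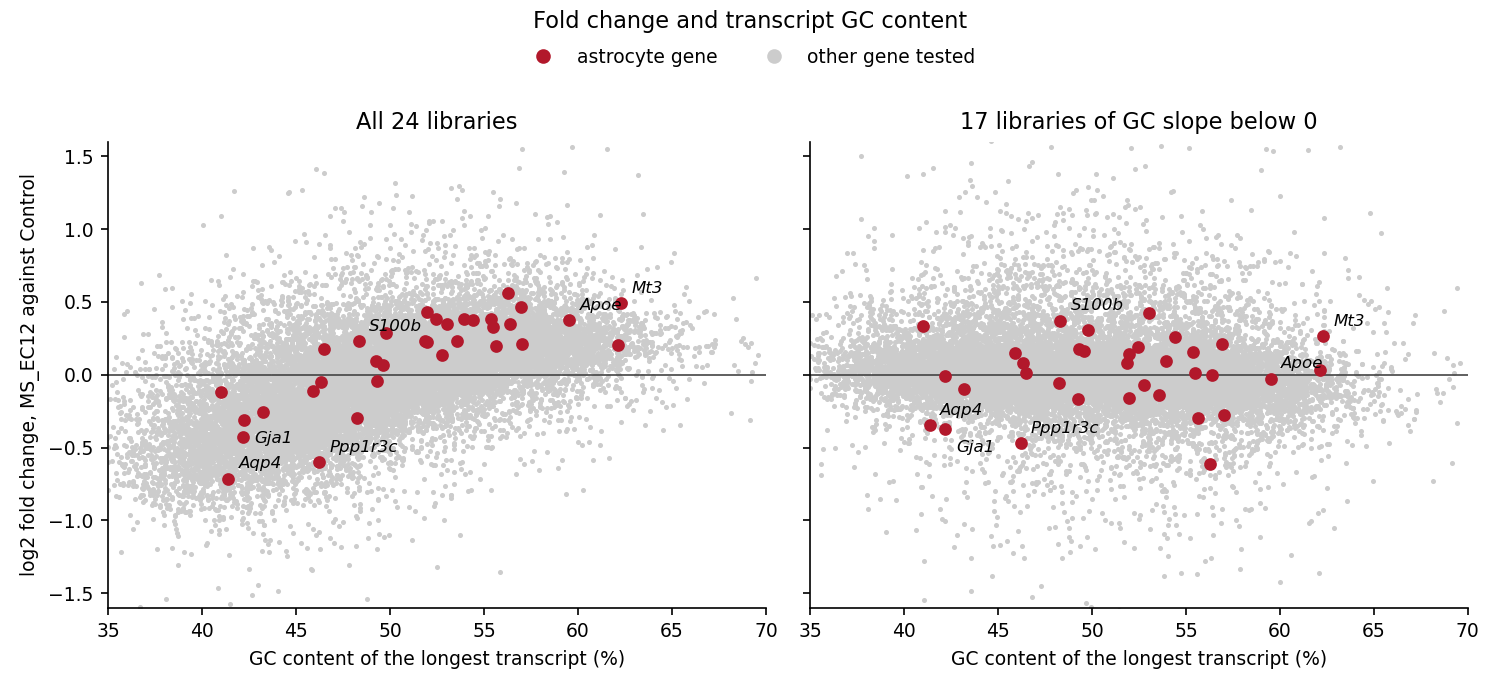
Log2 fold change of MS_EC12 against Control (vertical axis) against the GC content of the longest transcript in percent (horizontal axis), with genes beyond the panel edges not drawn; red points are the 34 astrocyte genes and grey points the other genes tested. The left panel, over all 24 libraries, slopes upward with r = 0.79 for the astrocyte genes, and the right panel, over the 17 libraries of slope below 0, does not, with r = 0.10. The 17 were chosen by a GC slope fitted to these same levels, so a weaker trend there follows from the choice.

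Among the glycogen and glycolysis genes, Ppp1r3c fell and Aldoc rose in MS_EC12 against Control. Ppp1r3c was -0.60 ± 0.0954 with an adjusted p of 0.00675 over all 24 libraries and -0.47 with an adjusted p of 0.0318 over the 17. It passed in every one of the 8 other settings, between -0.70 and -0.45, and without each of the 12 libraries in turn, between -0.66 and -0.51. Its longest transcript has 46.2% GC, and the gene lies on chromosome 19 from 36731731 to 36736604 (GRCm38.p6). Aldoc, the brain aldolase of glycolysis, was at 683 to 817 CPM in Control and 786 to 1030 in MS_EC12. Its log2 fold change of 0.23 ± 0.0714 passed over all 24 libraries (adjusted p = 0.0395), and the value of 0.08 over the 17 did not (adjusted p = 0.633).

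Of the 23 genes of the glycogen list tested, 1 passed higher and 1 lower in MS_EC12 against Control, Phkg2 at 0.25 and Phka2 at -0.37, both subunits of phosphorylase kinase and both named after their values were seen, where 14.1% of all genes passed. Neither passed over the 17 libraries, with adjusted p-values of 0.762 and 0.409. Another subunit gene, Phkg1, likewise named after its value was seen, passed over the 17 and not over the 24, at -0.47 (adjusted p = 0.0373). Over the 17, 1.01% of all genes passed. None of the 23 passed in MS_EC12 against MS, where the smallest p-values belonged to the brain and muscle glycogen phosphorylases, Pygb at 0.23 (adjusted p = 0.0843) and Pygm at 0.30 (adjusted p = 0.0888). Glycogen synthase, Gys1, was at 0.21 in MS_EC12 against Control with an adjusted p of 0.0679.

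The 2 astrocyte connexins differed in their values. Gja1 was at 177 to 204 CPM in Control with a median of 191, at 170 to 200 in MS with a median of 191, at 150 to 213 in Control_EC12 with a median of 175, and at 124 to 178 in MS_EC12 with a median of 157. The MS_EC12 range reached just into that of Control. The log2 fold change against Control was -0.31 ± 0.0853 (adjusted p = 0.0347) over all 24 libraries and -0.38 (adjusted p = 0.0297) over the 17. With the GC slope as a covariate it was -0.21 with an adjusted p of 0.361, and the call was lost without 9 of the 12 libraries, with adjusted p-values from 0.015 to 0.111. The transcript has 42.2% GC and the gene lies on chromosome 10 from 56377300 to 56390419.

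Gjb6, which encodes connexin 30, was at 34.9 to 41.9 CPM in Control and 33.2 to 46.6 CPM in MS_EC12, a log2 fold change of 0.06 ± 0.0901 with an adjusted p of 0.617. Cldn10, a claudin of astrocytes, was at 25 to 29.9 CPM in Control and 30.3 to 34.7 CPM in MS_EC12, with no overlap. Its log2 fold change of 0.29 ± 0.095 passed over all 24 libraries (adjusted p = 0.0457), and the similar value of 0.31 over the 17 did not (adjusted p = 0.155).

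For the lipid genes the 2 sets of libraries gave different values. Apoe, the main lipoprotein component made by astrocytes, was at 1100 to 1240 CPM in Control with a median of 1160. The MS_EC12 libraries of slope above 0 were at 1690, 1780, 1530 and 1810 CPM, and the 2 of slope below 0 were at 1080 and 1220 CPM, at the Control level. The log2 fold change was 0.37 ± 0.107 (adjusted p = 0.0354) over all 24 libraries and -0.03 (adjusted p = 0.907) over the 17. Within MS and Control_EC12 too, the libraries of slope above 0 were the highest for Apoe, at 1350 CPM in MS 3 and at 1500 and 1660 CPM in Control_EC12 3 and 4.

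Acsbg1, a fatty acyl-CoA synthetase, was at 133 to 148 CPM in Control and 154 to 222 in MS_EC12, with no overlap. Its log2 fold change was 0.38 ± 0.081 (adjusted p = 0.0193) over all 24 libraries and 0.15 (adjusted p = 0.323) over the 17. Clu, the apolipoprotein clusterin, passed in neither set, with 0.20 (adjusted p = 0.27) and -0.29 (adjusted p = 0.143). Of 16 further genes of lipoprotein and lipid transport, 3 were higher and 1 lower in MS_EC12 against Control over all 24 libraries. In that comparison 14.1% of all genes passed. The 3 were Apod, Fabp5 and Nr1h3 and the 1 was Lpl, all but Apod named after their values were seen. Over the 17 libraries 0 passed, against 1.01% of all genes, and the median was -0.031. None of the 16 passed in MS_EC12 against MS, where the smallest p-values were those of the lipid carrier Apod at 0.54 (adjusted p = 0.0664) and the cholesterol acyltransferase Lcat at 0.41 (adjusted p = 0.0789). That list shares Fabp7 with the olfactory list.

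Neither reactive filament gene passed in MS_EC12 against Control. Gfap was at 80.6 to 119 CPM in MS with a median of 107, and at 93.2 to 177 CPM in MS_EC12 with a median of 135, a range that overlaps that of Control. The log2 fold change against Control was 0.33 ± 0.114 with an adjusted p of 0.0528 over all 24 libraries, and 0.01 with an adjusted p of 0.982 over the 17. Vim was at 28.6 to 40.6 CPM in MS_EC12, a log2 fold change of 0.18 ± 0.114 with an adjusted p of 0.254.

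A wider list of 32 reactive astrocyte genes, 29 of them tested, held 1 gene higher and 2 lower in MS_EC12 against Control, with a median of 0.095, where 7.31% of all genes were higher and 6.8% lower. These were the immunoproteasome gene Psmb8 at 0.66, the oncostatin M receptor Osmr at -0.61 and the ceruloplasmin gene Cp at -0.73, named after their values were seen, and 0 of 29 passed over the 17 libraries. Of the 29, 0 passed in MS_EC12 against MS, where the smallest p-values were those of the asparaginase gene Aspg at 0.45 (adjusted p = 0.0844) and the sphingosine kinase gene Sphk1 at 0.61 (adjusted p = 0.0869). In MS against Control and Control_EC12 against Control 0 of 29 passed.

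The water and ion group split by gene. Aqp4 was at 108 to 125 CPM in Control with a median of 112, at 63.1 to 118 in MS with a median of 109, at 51.6 to 134 in Control_EC12 with a median of 120, and at 32.7 to 90.4 in MS_EC12 with a median of 76.3. Every MS_EC12 library was below every Control library. In all 4 groups the libraries of slope above 0, where a group had any, were the lowest for this gene, whose transcript has 41.4% GC. They were at 32.7 to 92.9 CPM over the groups, and the others at 90.1 to 134.

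The log2 fold change of Aqp4 against Control was -0.71 ± 0.209 (adjusted p = 0.037) over all 24 libraries and -0.35 (adjusted p = 0.024) over the 17, where the 2 MS_EC12 libraries were at 90.1 and 90.4 CPM. It was -0.19 (adjusted p = 0.538) with the GC slope as a covariate, and without single libraries the call was lost in 10 of 12 fits. Among supplemented mice Aqp4 was the one astrocyte gene to pass over the 17 libraries. In MS_EC12 against Control_EC12 it was -0.47 (adjusted p = 0.00718), where 0.162% of all genes passed, and -0.62 ± 0.209 (adjusted p = 0.23) over the 24, where 0 of 34 passed against 0.261% of all genes. Over the 24, 13 of the 34 had an unadjusted p under 0.05, DESeq2 called 1 and limma 0, and edgeR called 3 without Control_EC12 3 and 1 without MS_EC12 1 or 2.

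Mlc1, a membrane protein of the endfeet involved in volume control, was at 148 to 164 CPM in Control and 163 to 268 in MS_EC12. It was 0.43 ± 0.0897 (adjusted p = 0.0181) over all 24 libraries and 0.14 (adjusted p = 0.291) over the 17. Mt3 was at 176 to 203 CPM in Control and 222 to 329 in MS_EC12, with no overlap, and its transcript has 62.3% GC, the highest of the 34. Its log2 fold change was 0.49 ± 0.101 (adjusted p = 0.0181) over all 24 libraries and 0.27 (adjusted p = 0.0416) over the 17, and 0.27 (adjusted p = 0.163) with the GC slope as a covariate. The bicarbonate cotransporter gene Slc4a4 and the zinc transporter gene Slc39a12 passed in neither set, at -0.11 and -0.25 over all 24 libraries.

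In MS_EC12 against Control over all 24 libraries, 7.31% of all genes were higher. Of 8 genes that anchor the water channel or regulate volume, 2 were higher there. These were the cation channel gene Trpv4 at 1.73 ± 0.264 (adjusted p = 0.00488) and Hepacam, the adhesion partner of Mlc1, at 0.26 (adjusted p = 0.0474), the second named after its value was seen. Trpv4 also passed over the 17 libraries, at 1.41 (adjusted p = 0.0296), where 1.01% of all genes passed. Hepacam did not, at -0.01. None of the 8 passed in MS_EC12 against MS, with Trpv4 at 1.04 (adjusted p = 0.0745). Trpv4 is also made by the choroid plexus. The choroid plexus markers were summed at 142 to 152 TPM in Control, with a median of 147. In MS_EC12 they were at 81 to 1260 TPM, with a median of 114. The part of choroid plexus in the change of Trpv4 was not tested.

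In the amino acid, transmitter and folate group 1 of 5 genes passed in MS_EC12 against Control over all 24 libraries and 0 over the 17. Of all genes 14.1% and 1.01% passed in these sets. Aldh1l1, a folate enzyme used as a general astrocyte marker, was at 48.4 to 57.3 CPM in Control and 58.6 to 82.5 in MS_EC12, with no overlap. It was 0.37 ± 0.0867 (adjusted p = 0.0227) over all 24 libraries and 0.26 (adjusted p = 0.277) over the 17. The GABA transporter gene Slc6a11 was at 0.38 (adjusted p = 0.0615), and Slc7a10, Slc25a18 and Prodh, which handle small neutral amino acids, glutamate and proline, were at 0.21 to 0.23 and did not pass. Those last 3 were, over the 17 libraries, at -0.28, -0.14 and -0.16.

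In a list of 13 further genes of glutamate and potassium uptake, 1 passed in MS_EC12 against MS, against 0.163% of all genes. This was Slc38a3, which encodes the glutamine transporter SNAT3, at 0.74 ± 0.136 (adjusted p = 0.036) over all 24 libraries and 0.91 (adjusted p = 0.0438) over the 17. Against Control it was 0.59 (adjusted p = 0.0227) and 0.70 (adjusted p = 0.0373). With the GC slope as a covariate 0 of 13 passed in either comparison. The potassium channel gene Kcnj16, named after its value was seen, was lower than Control at -0.48 (adjusted p = 0.0454) over all 24 libraries and not over the 17 (adjusted p = 0.354). Against Control 1 of the 13 was higher and 1 lower over all 24, where 14.1% of all genes passed. Over the 17, 1 was higher and 0 lower, where 1.01% of all genes passed. The median of the list was 0.064 in MS_EC12 against MS.

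The receptors and membrane signalling genes held 2 of 6 that passed in MS_EC12 against Control over all 24 libraries and 0 of 6 over the 17. Of all genes 14.1% and 1.01% passed in the 2 sets. Gpr37l1, an orphan receptor of astrocytes, was at 147 to 175 CPM in Control and 173 to 294 in MS_EC12, with 0.47 ± 0.108 (adjusted p = 0.0227) and 0.21 (adjusted p = 0.199) in the 2 sets. Ntsr2, a neurotensin receptor, was at 63.3 to 84.3 CPM in Control and 75.8 to 126 in MS_EC12, with 0.38 ± 0.111 (adjusted p = 0.0355) and 0.19 (adjusted p = 0.462). Ntsr2 overlaps Lpin1, and the strand setting of the counting is not given, so its reads and those of Lpin1 may not be separate. The same limit holds for Plcd4, which overlaps Usp37, and for Slc7a10, which overlaps Lrp3. Fgfr3, a growth factor receptor, was at 0.35 (adjusted p = 0.0521), and the BMP receptor gene Bmpr1b, of 42.2% GC, at -0.42 (adjusted p = 0.0586). Daam2 and Plcd4 were at 0.14 and -0.04, and over the 17 libraries Fgfr3 and Bmpr1b were at 0.00 and -0.01.

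The transcription factor genes Sox9 and Hes5 passed in no comparison. Sox9, needed for astrocyte fate, was at 18.1 to 21 CPM in Control and 17.2 to 27.6 in MS_EC12, with a log2 fold change of 0.10 and an adjusted p of 0.6. Hes5, a Notch target, was at 8.73 to 15.4 CPM in Control and 9.97 to 20 in MS_EC12, with 0.20 and an adjusted p of 0.433. Of 16 further transcription and Notch genes, 1 was higher and 1 lower in MS_EC12 against Control, where 14.1% of all genes passed. These were Id2 at 0.36 (adjusted p = 0.0181) and Nfib, named after its value was seen, at -0.39 (adjusted p = 0.0417). Neither passed over the 17, where Lhx2, also named after its value was seen, did at -0.52 (adjusted p = 0.018). Of all genes 1.01% passed over the 17. In MS_EC12 against MS none of the 16 passed, and the smallest p-values were those of Id2 at 0.32 (adjusted p = 0.0664) and Nfia at -0.25 (adjusted p = 0.0754).

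The secreted and surface genes held none of 4 that passed in MS_EC12 against Control. Sparcl1, which encodes the synapse-promoting protein hevin, was at 1380 to 1530 CPM in Control and 946 to 1440 in MS_EC12, with -0.30 (adjusted p = 0.0573) over all 24 libraries and -0.05 (adjusted p = 0.734) over the 17. Chrdl1, an astrocyte factor that matures synapses, was at -0.12 and 0.33 in the 2 sets, and the tissue factor gene F3 at -0.05 and 0.08. Agt, the angiotensin precursor, had the widest spread of the 34, at 3.68 to 10 CPM in Control and 4.22 to 18.9 CPM in MS_EC12, and its log2 fold change was 0.56 ± 0.336 and -0.61 in the 2 sets.

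Of 15 further synapse-regulating genes, 0 were higher and 2 lower in MS_EC12 against Control over all 24 libraries, where 14.1% of all genes passed. The 2 were Gpc6 at -0.44 and Thbs1 at -0.60, both named after their values were seen. Thbs1, which encodes thrombospondin 1, also passed over the 17 libraries at -0.94 (adjusted p = 0.0363). So did the phagocytic receptor gene Mertk at 0.55 (adjusted p = 0.0037) and the proteoglycan gene Ncan at -0.24 (adjusted p = 0.0457). Both were named after their values were seen and neither passed over the 24. Over the 17, 1 of the 15 was higher and 2 lower, where 1.01% of all genes passed. With the GC slope as a covariate 0 of the 15 passed lower and 1 higher. In MS_EC12 against MS none passed over all 24 libraries, and the smallest p-values were those of the proteoglycan gene Bcan at 0.31 (adjusted p = 0.0799) and of Thbs1 at -0.36 (adjusted p = 0.129).

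Both genes of the last pair were higher in MS_EC12 than in Control over all 24 libraries, where 7.31% of all genes were higher. S100b was 0.23 ± 0.0765 (adjusted p = 0.0478) and 0.37 (adjusted p = 0.0142) over the 17, and over all 24 its call was lost without any 1 of the 12 libraries, with adjusted p-values from 0.0501 to 0.112. Ndrg2, a stress-related gene enriched in astrocytes, was at 506 to 653 CPM in Control and 610 to 930 in MS_EC12. It was 0.35 ± 0.0981 (adjusted p = 0.035) over all 24 libraries and 0.42 (adjusted p = 0.0593) over the 17. These 2 genes, like Gja1 and Cldn10 and unlike Apoe, had at least as large a fold change without the libraries of slope above 0. Those values rest on 2 MS_EC12 libraries.

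**Figure D3:**
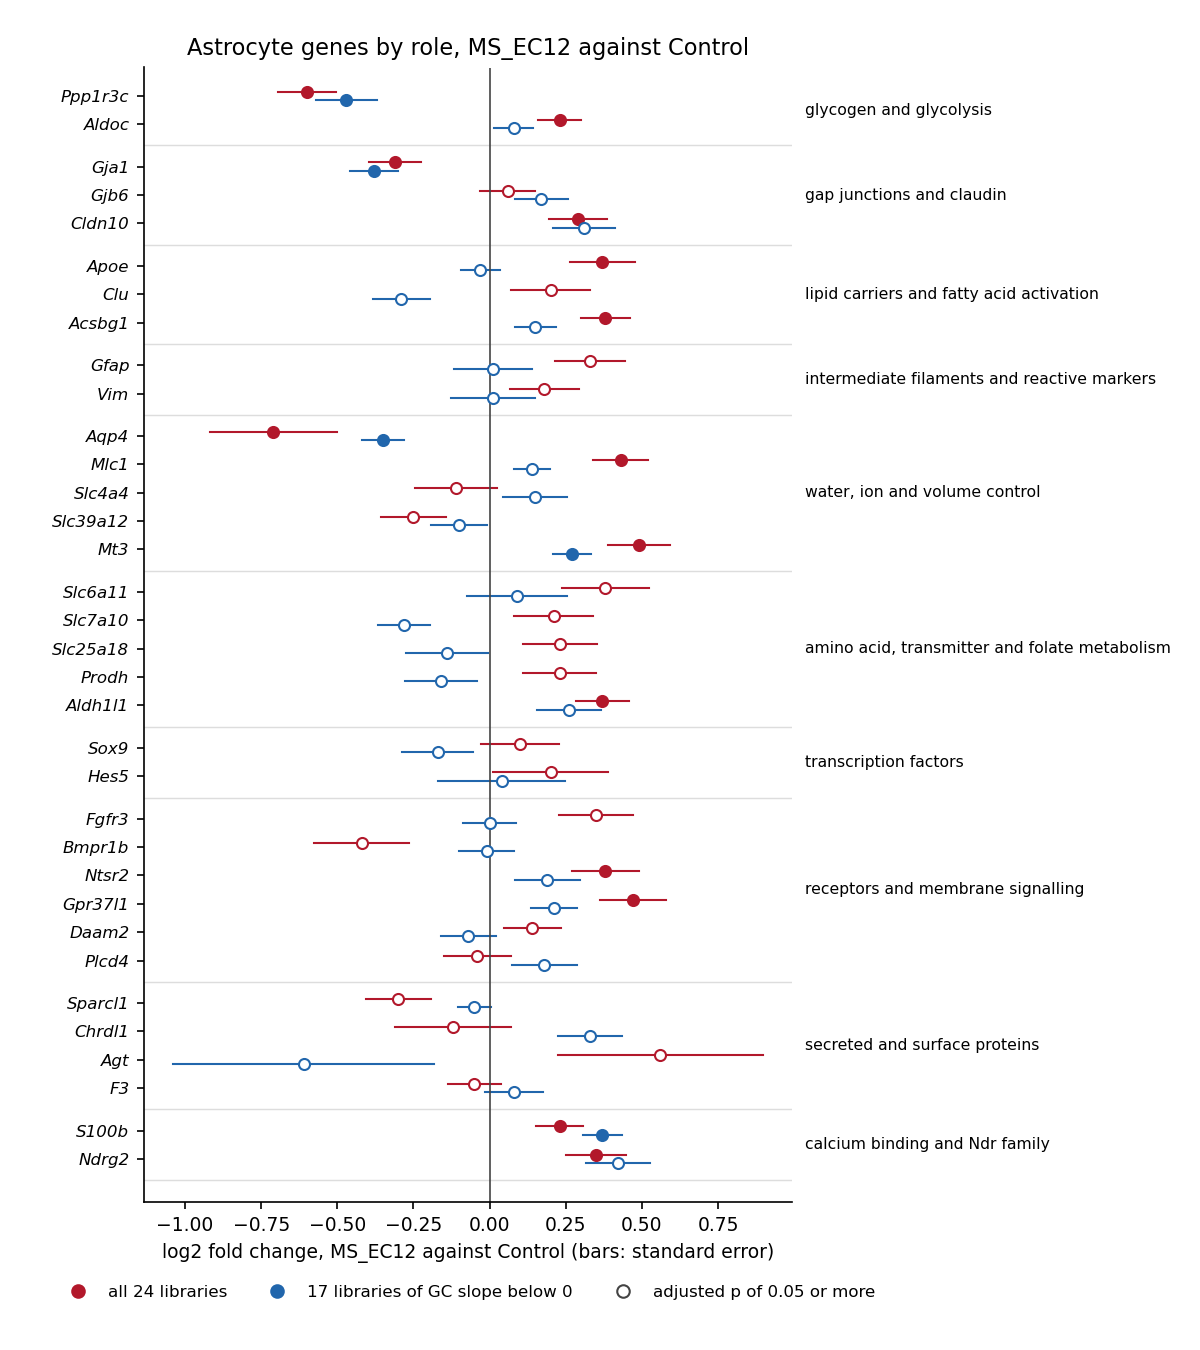
Log2 fold change of MS_EC12 against Control for the 34 astrocyte genes, grouped by role, over all 24 libraries (red) and over the 17 libraries of GC slope below 0 (blue); bars are standard errors and filled points have an adjusted p under 0.05. Ppp1r3c, Gja1 and Aqp4 are filled on the left in both sets, and Mt3 and S100b on the right in both.

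The interaction of rearing and supplement passed for 0 of 34 astrocyte genes over all 24 libraries, against 0.0109% of all genes, with 1 unadjusted p under 0.05, and DESeq2 and limma also called 0. It passed for 0 of 34 over the 17, against 0.0105%, with 5 unadjusted p under 0.05. The smallest adjusted p-values among the 34 were 0.83 and 0.332. No supplement effect on an astrocyte gene was thus shown to differ between the rearings at this number of libraries.

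**Figure D4:**
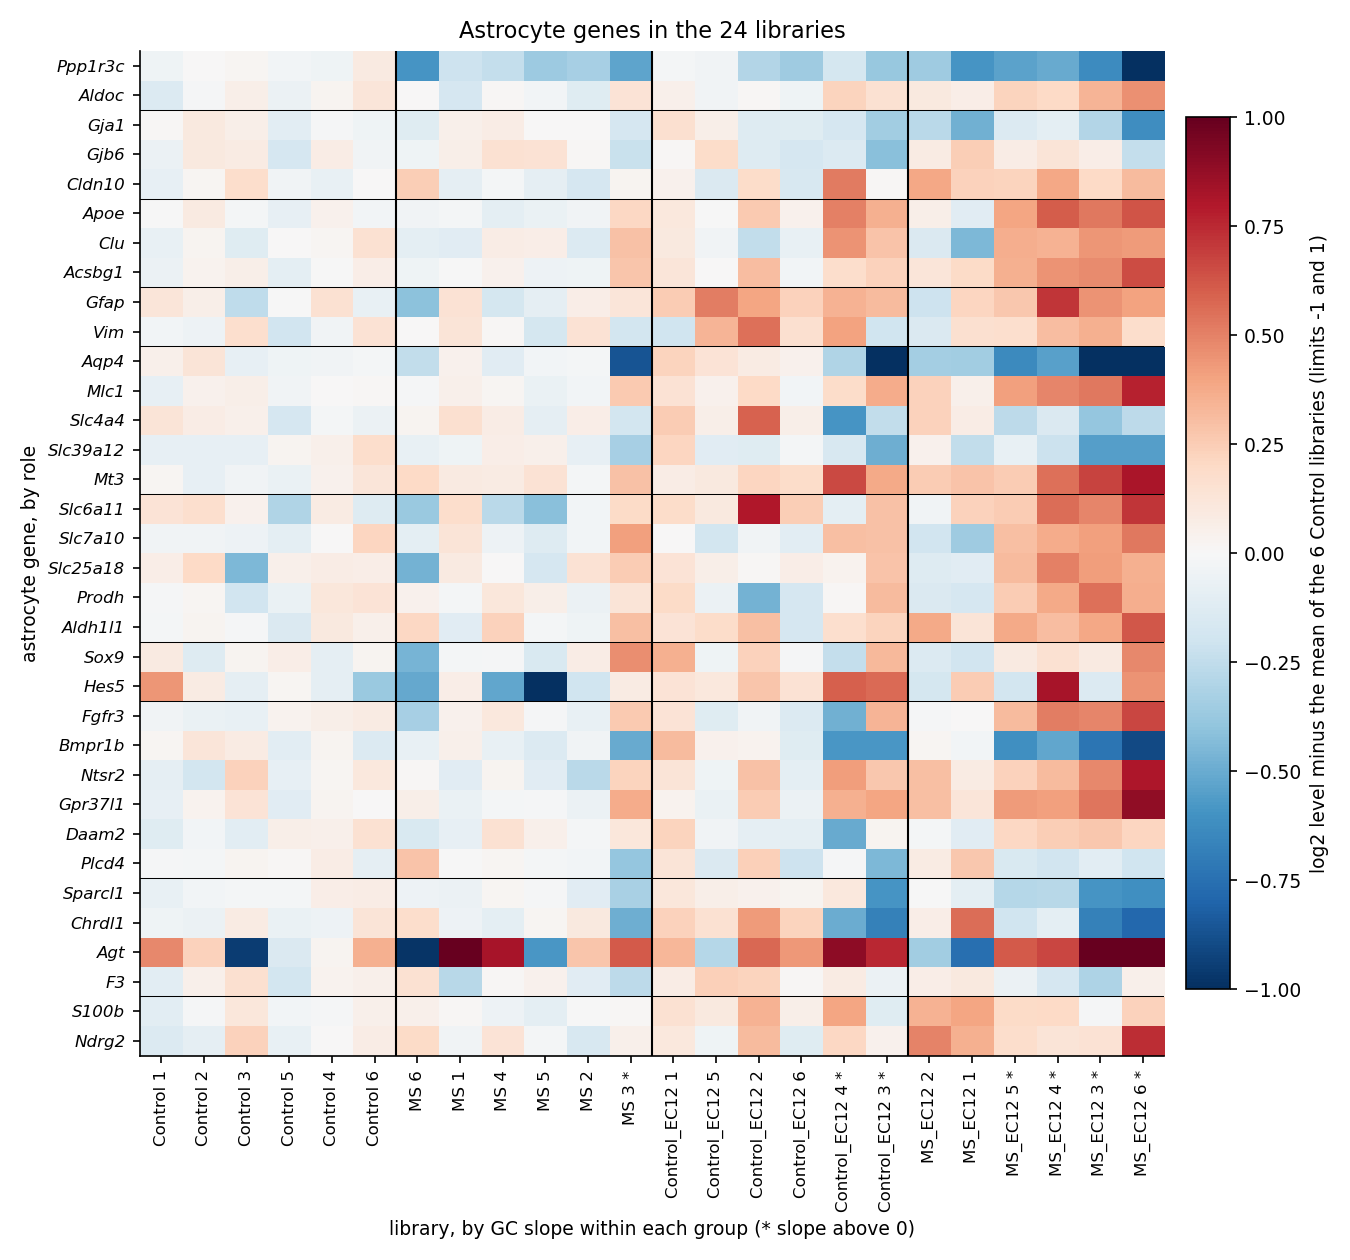
Log2 level of the 34 astrocyte genes (rows, by role) in the 24 libraries (columns, by group and, within a group, by GC slope), minus the mean of the 6 Control libraries, on a colour scale from -1 to 1; stars mark the 7 libraries of slope above 0. Ppp1r3c is below the Control mean in all 6 libraries of each of MS, Control_EC12 and MS_EC12. Its Control_EC12 values run from -0.382 to -0.023. The 7 starred columns are all below the Control mean for Aqp4 and above it for Apoe. They differ for other genes, as for Fgfr3 at -0.479 in Control_EC12 4 and 0.338 in Control_EC12 3.

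Markers of other cells were measured beside these results, in a comparison where 7.31% of all genes were called higher and 6.8% lower. In MS_EC12 against Control over all 24 libraries, microglial genes had 4 of 12 higher and 0 lower with a median of 0.257, and neuronal genes 0 of 12 higher and 1 lower with a median of -0.143. Oligodendrocyte genes had 0 of 10 higher and 2 lower (median 0.202), oligodendrocyte precursor genes 2 of 8 higher (median 0.082), endothelial genes 1 of 10 higher and 1 lower (median -0.128) and mural genes 1 of 9 higher (median 0.067). Ependymal genes had 1 of 8 higher (median 0.680), choroid plexus genes 1 of 5 tested (median 0.233), meningeal genes 0 of 10 (median -0.036) and olfactory genes 0 of 10 (median 0.476). The called genes included C1qa, C1qb, C1qc and Trem2 (microglia), Syt1 (neurons), Ermn (oligodendrocytes), Olig1 and Olig2 (precursors), Ly6c1 and Slco1a4 (endothelium), Vtn (mural cells), Foxj1 (ependyma) and Ttr (choroid plexus), named after their values were seen. None of the genes of these lists passed over the 17 libraries. The summed neuronal level was 7930 to 8390 TPM in Control and 6210 to 7870 TPM in MS_EC12, and the part of these cells in the astrocyte values was not tested.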

How the data were processed

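Messenger RNA of prefrontal cortex was sequenced with a stranded TruSeq kit, per the labels' protocols. Per the submitters' processing notes the build was mm10 and the tools included HISAT2 2.1.0 and StringTie 2.1.3b, with Trimmomatic 0.38 and FastQC 0.11.7 also listed beside DESeq2 and no settings. The deposited table holds raw read counts per gene, made by the authors and used for the main tests. It also holds TPM, made by the authors, which were used here for levels between genes and for summed marker lists, and 24 FPKM columns that were not used.

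Counts were analysed with edgeR 4.0.16 (R 4.3.3): filterByExpr (minimum count 10, minimum total 15), TMM scaling, and a quasi-likelihood F test with 1 coefficient per group over all 24 libraries. P-values were adjusted by Benjamini-Hochberg over all genes tested and called under 0.05. The same test was run on 19098 genes over the 17 libraries of GC slope below 0, and with that slope as a covariate. CPM values carry the TMM scaling. Standard errors are the log2 fold change divided by the square root of F. Total counts were 26250197 to 39252382 per library, and the precision of each value also depends on the spread between libraries. GC content is that of the longest GENCODE M21 transcript, found for 92.7% of genes tested. Promoter windows and gene coordinates are from RefSeq GRCm38.p6, the assembly of mm10, with a window for 29 of the 34 genes; Clu, Aqp4, Sox9, Sparcl1 and Chrdl1 have none here.

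Group labels came from the sample titles. Groups were compared in pairs and by the interaction of rearing and supplement. The alternatives were a replicate block, RLE size factors, DESeq2 1.42.0, no filter on low counts, limma 3.58.1 on log2(TPM + 1), each pair of groups alone, and each library left out. The script was tested on simulated data. The genes, lists and roles were chosen with earlier results of these data known. Every one of the 34 genes is accounted for. Values are given for those that passed (the 12 of smallest p where more did) and for Ppp1r3c, Gja1, Gjb6, Apoe, Clu, Gfap, Vim and Aqp4. Of each pathway list at most 3 genes were named, those of smallest p in MS_EC12 against MS among those passing, and otherwise 2 that did not pass; other genes of these lists are said to be named after their values were seen. Values of some list genes are not reported here.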

Additional observations from a re-analysis of the deposited data

Results flagged for a closer look

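In groups of 6 libraries, 9 of 136 checks of an astrocyte gene found a highest or lowest library set apart from the next by a gap above the 95% critical value of Dixon's test, which divides the gap by the group's whole range. Chance alone exceeds that value in about 1 in 20 groups. Of the 9 findings, 5 were in libraries of GC slope above 0. MS 3, of slope above 0, was the highest of its group for 4 genes: Apoe at 1350 CPM, Acsbg1 at 171 CPM, Mlc1 at 188 CPM and Gpr37l1 at 206 CPM. Control_EC12 3, also of slope above 0, was the lowest of its group for Sparcl1 at 965 CPM. Among libraries of slope below 0, Control_EC12 2 was the highest of its group for Slc6a11 at 411 CPM. Control 3 was the highest of its group for Cldn10 at 29.9 CPM and the lowest for Slc25a18 at 37.6 CPM. Control 6 was the highest of its group for Slc7a10 at 28.6 CPM.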

How the results depend on the processing

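In MS_EC12 against Control the 14 astrocyte genes called became 6 with no filter on low counts, 5 over the 17 libraries of GC slope below 0 and 1 with that slope as a covariate. The other settings gave 12 to 20: limma on log2(TPM + 1) 12, RLE size factors 16, the 2 groups alone 16, DESeq2 19 and the replicate block 20. Leaving out 1 library gave 1 to 20: 1 without Control 5 or MS_EC12 6, 4 without Control 1, MS_EC12 3 or MS_EC12 4, 6 without Control 2, 4 or 6, 7 without Control 3, 8 without MS_EC12 5, 19 without MS_EC12 2 and 20 without MS_EC12 1.

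In MS_EC12 against MS the count of 0 became 15 with DESeq2, 16 with the replicate block, 1 with limma on log2(TPM + 1) and 1 over the 17 libraries. Leaving out 1 library gave 0 to 18: 17 without MS 3, 16 without MS_EC12 1 and 18 without MS_EC12 2. In MS_EC12 against Control_EC12 the count of 0 became 1 with DESeq2, 1 with the replicate block and 1 over the 17 libraries, and 0 to 3 on leaving out 1 library, 3 without Control_EC12 3 and 1 without MS_EC12 1 or MS_EC12 2. In MS against Control the count of 0 became 1 over the 17 libraries and 1 with the slope as a covariate. Control_EC12 against Control and the interaction stayed at 0 in every setting run and without each library. The cause of these differences was not tested. Among the astrocyte genes called over all 24 libraries, 1 changed sign, Apoe in MS_EC12 against Control, at -0.03 over the 17 libraries, where fewer libraries entered.

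The count over all genes moved as widely. In MS_EC12 against Control the 2594 genes called became 5939 with the replicate block, 4439 with DESeq2, 4046 with limma, 339 with no filter, 193 over the 17 libraries and 40 with the covariate, and 9 to 6544 without 1 library. In MS_EC12 against MS the 30 became 3809, 1894, 161, 1, 14 and 3 in that order, and 0 with the 2 groups alone. In MS_EC12 against Control_EC12 the 48 became 232 with the block, 177 with DESeq2, 16 with limma, 31 over the 17 libraries and 2 with the 2 groups alone. In MS against Control the 6 became 10 with the block, 22 with DESeq2, 83 over the 17 libraries, 62 with the covariate and 13 with the 2 groups alone. In Control_EC12 against Control the 4 became 33, 74, 87, 138 and 2 in that order, and 2 with limma. The interaction's 2 became 9 with the block, 19 with DESeq2, 7 with the covariate, 1 with no filter and 0 with limma.

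The replicate numbers did not pair the libraries: across 36 same-numbered pairs the correlation of deviations was -0.3 to 0.575, with 13 over 0.1, and 5 of 24 libraries correlated best with their own number. Only 2 MS_EC12 libraries have a slope below 0, so the values over the 17 libraries rest on those 2.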
